A study of Mus musculus with 24 samples.

Results

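The 6 genes followed here cut and deliver peptides for major histocompatibility complex (MHC) class I. They are Psmb8, Psmb9, Psme1, Psme2, Tap1 and B2m. Every probe set annotated to these 6 genes was taken, which gave 9 probe sets among the 12422 tested and 6 of the 8252 genes represented. The measurements were deposited probe set intensities from 24 oligonucleotide arrays of sorted mouse leukocytes, given here as log2 intensity, so a difference of 1 is a doubling. The intensity of one probe set cannot be ranked against that of another, so levels were compared between samples only.

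The arrays fall into 10 groups, made of 5 populations on 2 backgrounds. B6g7 is C57Bl/6-H2g7/g7, that is C57Bl/6 carrying H2g7, the MHC haplotype of NOD, so both backgrounds carry the same MHC haplotype. Psmb8, Psmb9 and Tap1 lie within the MHC on chromosome 17. The BDC2.5 transgene encodes a T cell receptor that directs CD4 T cells at the pancreatic islets. The labels call the islet inflammation of BDC2.5 mice aggressive on B6g7 and benign on NOD. Pancreatic infiltrate, sorted as CD45+ Hoechst- cells from BDC2.5 mice, was measured in 3 B6g7 arrays (25, 28 and 24 days of age) and 3 NOD arrays (25 days). CD45+ CD4+ T cells with high staining for the BDC2.5 clonotype came from the pancreas of BDC2.5 mice in 2 B6g7 arrays (25 and 22 days) and 3 NOD arrays (24, 24 and 25 days). The same T cells came from the pancreatic lymph node in 2 B6g7 arrays (25 and 22 days) and 3 NOD arrays (24, 22 and 25 days). Splenic NK cells, sorted as Asialo GM1+ CD45+, were measured in 2 arrays per background. The B6g7 NK mice were 6 and 3 weeks old with no transgene labelled, no age was given for the NOD NK mice, and NOD NK array 2 is described as carrying BDC2.5. CD45+ splenic leukocytes without a labelled transgene or age were measured in 2 arrays per background. Whether the mice behind the arrays of a group differed is not labelled, and the p-values measure array-to-array spread that may be technical. Groups of 2 or 3 arrays can readily separate without overlap by chance. The share of all probe sets that did so was not counted, so lack of overlap between such groups is a description only.

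The proteasome is the barrel-shaped protease that degrades cytosolic proteins. Interferon gamma induces replacement catalytic subunits, among them Psmb8 (LMP7) and Psmb9 (LMP2), which take the places of Psmb5 and Psmb6 and turn the barrel into the immunoproteasome. Psme1 and Psme2 (PA28 alpha and beta) form a ring that opens the barrel and raises peptide output. Tap1 and its partner Tap2 pump the peptides into the endoplasmic reticulum, where tapasin (Tapbp) helps load them onto a class I heavy chain paired with beta-2 microglobulin, the product of B2m. Peptide on class I is what CD8 T cells read, and missing class I removes an inhibitory signal to NK cells.

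The promoters are shown because Psmb9 and Tap1, measured by separate probe sets, are transcribed away from each other out of one shared stretch of DNA, and because 2 of the genes shown differed in NK cells and 2 did not pass the test there. Windows of 280 bases, 250 before to 30 from the start site onwards, were taken from RefSeq on build GRCm38.p6, and all 6 genes had a window. The Psmb9 window (chr17:34187301-34187580, minus strand) shares 275 bases with that of Tap1 (chr17:34187306-34187585, plus strand), with 225 bases between the start sites. Psme1 lies at chr14:55578244-55578523, Psmb8 at chr17:34197945-34198224 and B2m at chr2:122147437-122147716, all on the plus strand. Capitals mark matches, on either strand, to GAAA, any 2 bases and GAAA again (the core of the interferon-stimulated response element, ISRE), to TTC, any 3 bases and GAA (the gamma-activated site core, GAS), to GGGA, any base and TTTCC (a kappaB form), or to CCAAT.
Psmb9: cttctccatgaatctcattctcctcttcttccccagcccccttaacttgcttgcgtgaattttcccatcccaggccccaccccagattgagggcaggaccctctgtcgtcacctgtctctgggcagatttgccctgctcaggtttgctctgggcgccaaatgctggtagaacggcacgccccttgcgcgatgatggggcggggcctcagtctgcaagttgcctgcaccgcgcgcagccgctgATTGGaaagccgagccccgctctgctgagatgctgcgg
Psme1: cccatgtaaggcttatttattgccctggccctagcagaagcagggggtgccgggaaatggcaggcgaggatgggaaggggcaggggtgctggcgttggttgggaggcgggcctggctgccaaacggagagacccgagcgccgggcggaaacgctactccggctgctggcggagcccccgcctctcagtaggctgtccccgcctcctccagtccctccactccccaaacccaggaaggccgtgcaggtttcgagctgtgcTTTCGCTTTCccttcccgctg
Psmb8: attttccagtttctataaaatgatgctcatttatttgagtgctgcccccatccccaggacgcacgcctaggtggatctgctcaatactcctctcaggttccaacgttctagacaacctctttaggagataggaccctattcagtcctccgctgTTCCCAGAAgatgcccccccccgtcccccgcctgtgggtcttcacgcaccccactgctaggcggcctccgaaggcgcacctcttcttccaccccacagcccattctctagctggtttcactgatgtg
B2m: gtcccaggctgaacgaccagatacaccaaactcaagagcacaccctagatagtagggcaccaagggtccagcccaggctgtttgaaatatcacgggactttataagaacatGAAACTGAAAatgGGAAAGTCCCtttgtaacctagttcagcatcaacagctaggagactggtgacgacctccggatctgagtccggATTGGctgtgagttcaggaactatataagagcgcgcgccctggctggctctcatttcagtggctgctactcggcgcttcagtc
The ISRE core stood in the windows of B2m and Psme1, and in 3.28% of all 32851 promoter windows. The GAS core stood in the Psmb8 window, as a stretch that matches on both strands, and in 7.83% of all windows. The kappaB form stood in the B2m window just after the first motif without overlapping it, and in 0.39% of all windows. CCAAT stood in the shared Psmb9 and Tap1 stretch and in B2m, and in 36.1% of all windows. Neither of the Psme2 windows held any of the motifs. A match is a string of letters, not a shown binding site.

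The 4 NK arrays stood apart from the other populations in the levels of Psmb9, Psme1 and Psme2, and lay low with some overlap in that of Tap1. Psmb9 lay at 6.92 and 7.02 in B6g7 NK cells and 7.05 and 6.97 in NOD NK cells, against 7.73 to 10.18 (median 8.94) in the 20 other arrays. Psme1 lay at 7.66 and 7.54 in B6g7 NK cells and 7.60 and 7.48 in NOD NK cells, against 8.38 to 9.92 (median 9.18) in the other arrays. All 4 NK arrays were therefore below every other array for both genes. The Psme2 probe set, which the annotation also assigns to its near copy Psme2b so that the 2 cannot be told apart, lay at 7.09 and 7.13 in B6g7 NK cells and 7.64 and 7.50 in NOD NK cells, against 8.59 to 9.93 (median 9.05) elsewhere, again without overlap. Tap1 lay at 7.39 and 7.20 in B6g7 NK cells and 6.93 and 7.08 in NOD NK cells, against 7.10 to 8.77 (median 8.12) elsewhere. For Tap1, 2 of the other arrays, both NOD pancreatic T cells, lay within the NK range. Psmb8, the other catalytic subunit measured here, lay at 9.80 and 10.20 in B6g7 NK cells and 9.60 and 10.42 in NOD NK cells, inside the range of 9.46 to 10.81 elsewhere. B2m lay at 11.80 and 11.75 in B6g7 NK cells and 11.75 and 11.88 in NOD NK cells, also inside the range of 10.43 to 12.25 elsewhere.

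**Figure D1:**
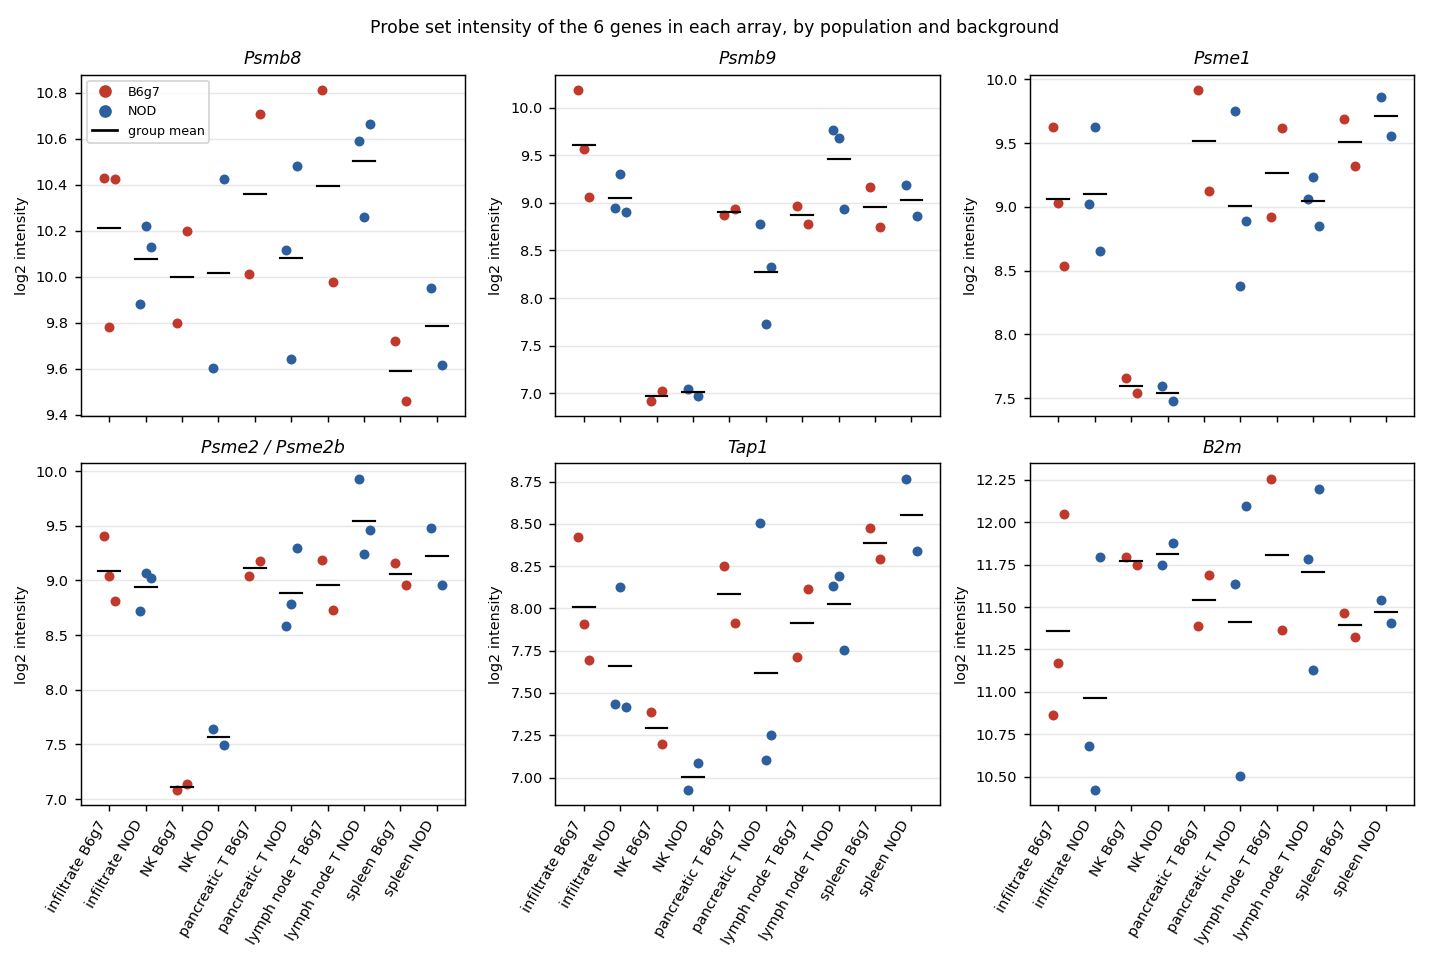
Log2 intensity of each gene in every array (points; red, B6g7; blue, NOD) with the group mean as a black line, for 5 populations on 2 backgrounds; vertical axes do not start at 0. NK points lie below all others for Psmb9, Psme1 and Psme2/Psme2b, while NK points for Psmb8 and B2m fall within the other groups.

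Against total splenic leukocytes, taken as the mean over both backgrounds, 4 of the 6 genes were lower in NK cells and none was higher, where 13.4% of all probe sets were lower and 23.1% changed in either direction. Psme1, of the PA28 ring, fell by 2.04 on the log2 scale (SE 0.29, 4.11-fold lower, limma adjusted p = 5.90e-05). Psmb9 fell by 2.0 (SE 0.24, 4.0-fold lower, limma adjusted p = 9.94e-06) and Psme2/Psme2b fell by 1.80 (SE 0.19, 3.48-fold lower, limma adjusted p = 1.69e-06). Tap1, the transporter subunit, fell by 1.32 (SE 0.26, 2.5-fold lower, limma adjusted p = 0.00115). For each of the 4 genes, all 4 NK arrays lay below all 4 spleen arrays. Psmb8 differed by 0.32 (95% interval -0.20 to 0.84, limma adjusted p = 0.419) and did not pass. B2m averaged 11.79 in NK cells and 11.43 in spleen, a difference of 0.36 (95% interval -0.40 to 1.11, limma adjusted p = 0.557), with no overlap of the arrays, and passed only in the fit restricted to the compared groups (limma adjusted p = 0.00798). Of the arrays compared, 3 NK and 4 spleen arrays carry neighbouring serial codes in the labels, and within them the differences were -2.02 for Psmb9, -2.01 for Psme1, -1.81 for Psme2/Psme2b and -1.27 for Tap1.

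Lymph node BDC2.5 T cells gave a second comparison, in which both sides had been amplified in 2 rounds. Again 4 of the 6 genes were lower in NK cells and none was higher, where 8.68% of all probe sets were lower and 15.2% changed in either direction. Psmb9 fell by 2.17 on the log2 scale (SE 0.23, 4.52-fold lower, limma adjusted p = 6.39e-06). Psme2/Psme2b fell by 1.91 (SE 0.18, 3.76-fold lower, limma adjusted p = 1.41e-06) and Psme1 fell by 1.59 (SE 0.28, 3.01-fold lower, limma adjusted p = 0.000865). The NK arrays lay below all 5 lymph node arrays for all 3 genes. Tap1 fell by 0.82 (SE 0.25, 1.77-fold lower, limma adjusted p = 0.0343), but this call was lost (limma adjusted p from 0.0516 to 0.120) on leaving out any 1 of the 9 arrays except NOD lymph node array 3, and with runs of serial codes as a random block (limma adjusted p = 0.206). Psmb8 differed by -0.44 (95% interval -0.94 to 0.05, limma adjusted p = 0.240) and B2m by 0.04 (95% interval -0.69 to 0.76, limma adjusted p = 0.964), and neither passed. Both comparisons use the same 4 NK arrays. RMA is named for 3 of them, for none of the lymph node arrays and for 2 of the 4 spleen arrays. NOD NK array 1, for which it is not named, lay at 7.05 for Psmb9, against 6.92 to 7.02 in the other 3 NK arrays, and at 7.60 for Psme1, against 7.48 to 7.66. That array was the highest NK array for Psme2/Psme2b, at 7.64 against 7.09 to 7.50. It was the lowest for Tap1, at 6.93 against 7.08 to 7.39, and for Psmb8, at 9.60 against 9.80 to 10.42.

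**Figure D2:**
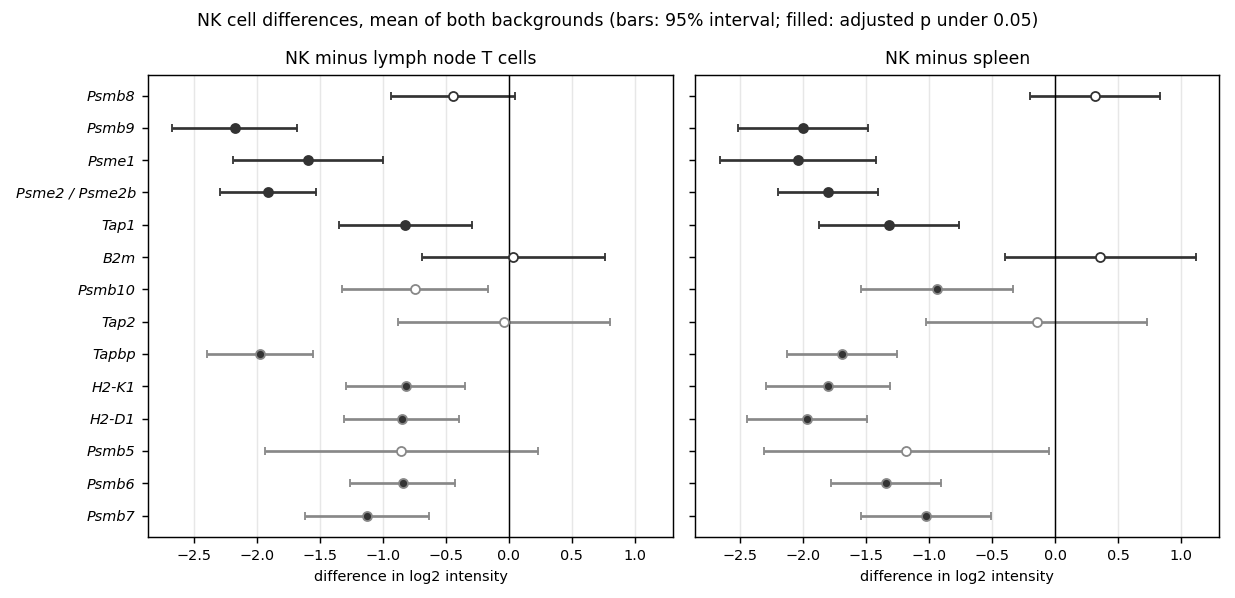
Difference in log2 intensity between NK cells and lymph node T cells (left) and between NK cells and spleen (right), each the mean of both backgrounds, with 95% intervals, for the 6 genes (dark) and 8 genes of the same pathway (grey); filled points passed an adjusted p of 0.05. Psmb9, Psme1, Psme2/Psme2b, Tap1 and Tapbp lie left of 0 in both panels, and the intervals of Psmb8, B2m and Tap2 include 0.

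RNA quality and cell content also set the NK arrays apart. The 3' minus 5' difference of the Gapdh control probe sets, which grows as cDNA gets shorter, was 4.32 to 5.27 in NK arrays on the log2 scale, against 2.56 to 4.87 in the other arrays amplified in 2 rounds and 0.21 to 0.37 in spleen, which had 1 round. For the beta-actin control (Actb) the same difference was 5.29 to 5.52 in NK arrays, above the 0.63 to 4.88 of all other arrays. Amplification and population cannot be told apart in the comparison with spleen. Over the 20 arrays without spleen, the Gapdh difference correlated with Psmb9 at r = -0.87, with Psme2/Psme2b at -0.86, with Psme1 at -0.65 and with Tap1 at -0.51, but with B2m at -0.04. Over the 16 arrays left without NK cells these became -0.66, -0.57, 0.01, -0.12 and -0.41, so for Psme1 and Tap1 the relation lay between NK cells and the rest. These are descriptions over arrays that share populations and runs of neighbouring serial codes. The part of RNA quality in the NK differences was not tested. The mean of 8 NK markers was 7.42 to 8.25 in NK arrays. It was 5.03 to 5.12 in lymph node T cells, 5.73 to 6.33 in spleen and 5.65 to 7.08 in infiltrate. Of these markers, Klrd1 averaged 9.40 and 9.24 in B6g7 and NOD NK cells, above the 4.55 to 7.92 of the other groups. Gzma, at 9.08 and 8.85, did not separate from B6g7 infiltrate at 9.08, nor did Prf1, at 6.47 and 6.24 against 6.47. The mean of 5 B cell markers was 7.19 to 7.96 in NK arrays, against 5.21 to 5.56 in lymph node T cells and 9.94 to 10.12 in spleen. The mean of 7 granulocyte markers was 5.44 to 9.94 in NK arrays, against 4.70 to 5.05 in lymph node T cells and 5.98 to 7.75 in spleen. In the same order, the mean of 7 T cell markers was 5.48 to 7.04, 8.21 to 8.35 and 7.12 to 7.87. That of 2 CD8 markers was 5.49 to 8.72 (highest in B6g7 NK array 1), 5.28 to 7.06 and 6.44 to 7.83. That of 7 macrophage markers was 6.33 to 7.27, 4.61 to 4.87 and 5.79 to 6.08. In bulk samples fewer cells of a type and less RNA per cell cannot be told apart, and the part of other cells in the NK differences was not tested.

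**Figure D3:**
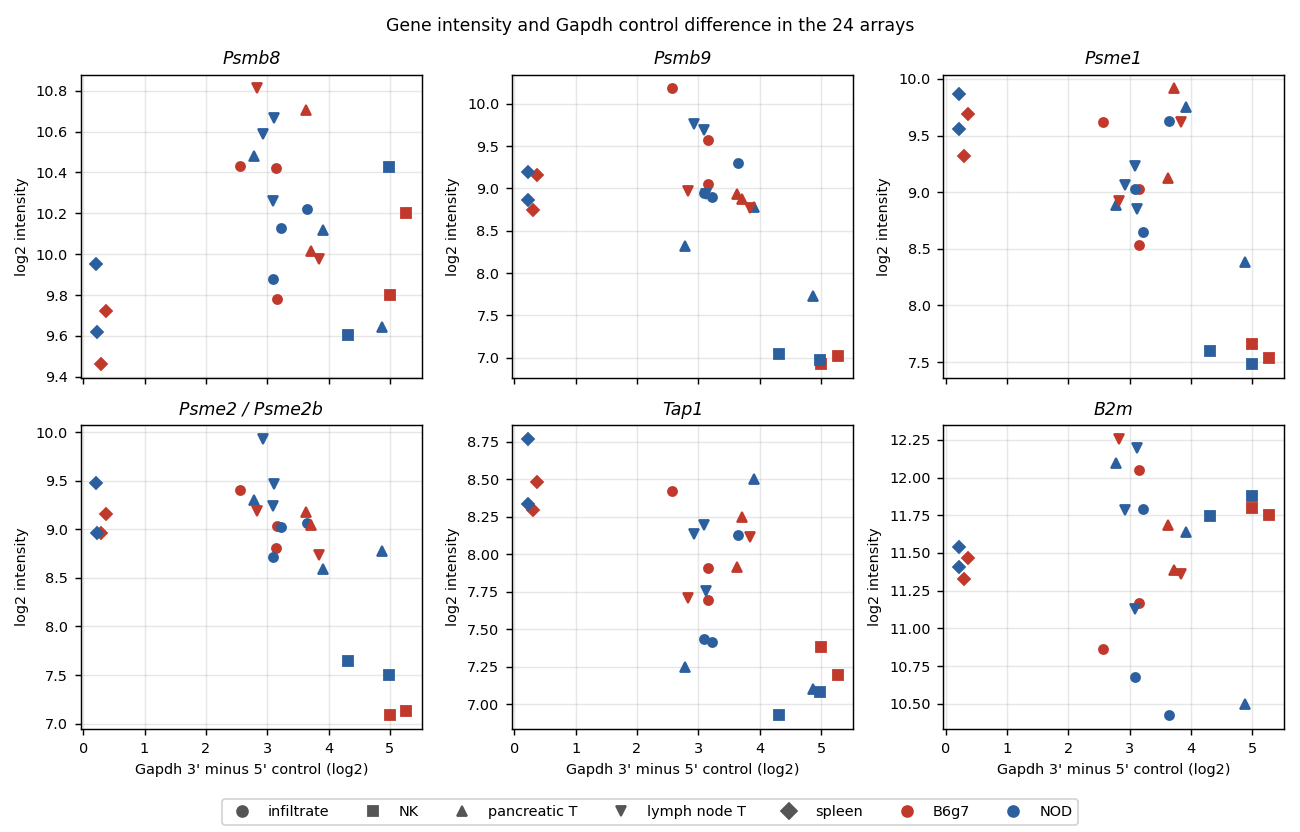
Log2 intensity of each gene against the 3' minus 5' difference of the Gapdh control in the same array (24 arrays; shape, population; colour, background); axes do not start at 0 throughout. The 4 NK arrays and NOD pancreatic T cell array 2 lie furthest right, and Psmb9 is lowest in these 5 arrays, while B2m shows no such order.

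The rest of the pathway was described from lists of genes in NK cells, given first against spleen and then against lymph node T cells. Counts in these lists stand beside 13.4% of all probe sets lower and 23.1% changed in either direction against spleen. Against T cells these shares were 8.68% and 15.2%. Among 4 further immunoproteasome genes, 2 were lower and none higher against spleen, and 1 was lower and 1 higher against T cells. Pomp, the assembly chaperone that brings immunoproteasome subunits together, fell by 1.44 and fell by 1.16 (limma adjusted p = 2.49e-05 and 0.000313). Psmb10, the third inducible catalytic subunit, fell by 0.93 against spleen (limma adjusted p = 0.0239) and differed by -0.74 from T cells without passing (limma adjusted p = 0.0787). Psme3 (PA28 gamma), the nuclear relative of Psme1 and Psme2, was higher than in T cells by 1.11 (limma adjusted p = 0.0138) and differed by 0.37 from spleen (limma adjusted p = 0.454).

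The other proteasome subunits were mixed in NK cells, and their counts stand beside the 13.4% of all probe sets that were lower against spleen and the 8.68% that were lower against T cells. Of the 3 constitutive catalytic subunits, Psmb6 fell by 1.34 and fell by 0.84 (limma adjusted p = 0.000109 and 0.00723), Psmb7 fell by 1.02 and fell by 1.12 (0.00506 and 0.00316), and Psmb5 did not pass in either comparison. Of 11 other subunits of the barrel, 5 were lower and 2 higher against spleen, and 8 lower and 1 higher against T cells. Psma7 fell in both, with differences of -1.91 and -1.66 (limma adjusted p = 0.000134 and 0.000708), whereas Psmb1 was higher by 0.78 and by 0.33 (limma adjusted p = 3.33e-05 and 0.0359). Of 20 subunits of the regulatory cap, 3 were lower and 3 higher against spleen, and 5 lower and none higher against T cells. The median difference of the 6 genes followed here was -1.56 against spleen, beside -0.65 for the barrel list, -0.16 for the cap list and 0.06 over all probe sets. Against T cells these medians were -1.21, -1.09, -0.34 and 0.04. The 3 constitutive catalytic subunits had medians of -1.18 against spleen and -0.85 against T cells. The 4 further immunoproteasome genes had medians of -0.40 and -0.31.

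Among 5 measured loading genes, Tapbp was the 1 that passed in both comparisons. It fell by 1.69 against spleen and fell by 1.97 against T cells (limma adjusted p = 1.04e-05 and 3.05e-06), and its 4 NK arrays, at 7.18 to 7.35, lay below the 7.84 to 9.65 of the other 20. Tap2, the partner of Tap1, differed by -0.15 and -0.04 and did not pass (limma adjusted p = 0.873 and 0.965). The chaperones Calr and Canx and the disulfide isomerase Pdia3 did not pass either.

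Of 14 class I heavy chain and related genes, 4 were lower and 2 higher in NK cells in each comparison. Over all probe sets, 13.4% were lower and 23.1% changed in either direction against spleen, and 8.68% and 15.2% against T cells. H2-K1, a classical class I heavy chain, averaged 9.73 in NK cells and 11.53 in spleen, and fell by 1.80 against spleen and fell by 0.82 against T cells (limma adjusted p = 1.80e-05 and 0.0179). H2-D1, the other classical chain on the list, fell by 1.97 and fell by 0.85 (4.57e-06 and 0.0120). H2-Q4, a non-classical gene, fell by 3.44 and fell by 1.15 (8.93e-07 and 0.0237). Class I genes are near copies of each other, so probes may bind more than 1 of them. The heavy chains H2-K1 and H2-D1 were thus lower in arrays in which their light chain B2m did not pass the test.

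Of 10 genes of interferon gamma signalling, 4 were lower and none higher against spleen, and 3 lower and 2 higher against T cells. The shares of all probe sets were again 13.4% lower and 23.1% changed against spleen, and 8.68% and 15.2% against T cells. Irf1, a transcription factor that interferon gamma induces and that acts on Psmb9 and Tap1, fell by 1.17 and fell by 1.73 (limma adjusted p = 0.00648 and 0.000378). Irf8 was higher than in T cells by 1.91 (1.78e-05) and differed by -0.11 from spleen. Ifng itself differed by 0.95 and 0.82 and did not pass (0.0594 and 0.118).

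Between the backgrounds, none of the 6 genes passed in any population. The shares of all probe sets that passed, B6g7 against NOD, were 0.274% in infiltrate, 0.145% in pancreatic T cells, 0.129% in lymph node T cells, 0.0483% in NK cells and 0.0725% in spleen. Unadjusted p-values under 0.05 were reached by 521, 800, 864, 156 and 155 of the 12422 probe sets in those populations. Among the values of the 6 genes in the 5 populations, 1 had an unadjusted p under 0.05, that of Psme2/Psme2b in lymph node T cells.

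In the infiltrate, Psmb9 lay at 10.18, 9.57 and 9.06 in B6g7 arrays and at 8.95, 9.31 and 8.90 in NOD arrays. The 2 highest arrays were B6g7, but the groups overlapped, and the difference of 0.55 (SE 0.28, 95% interval -0.05 to 1.15) did not pass (limma adjusted p = 0.999). Both of these B6g7 arrays carried liver transcripts, with the albumin gene Alb at 10.58 and 10.46 against 4.19 in B6g7 array 3. Without the arrays with liver transcripts, a set chosen after seeing the data, the Psmb9 difference was 0.0038. That value sets B6g7 array 3 alone against the NOD arrays. Without B6g7 array 1 only, the Psmb9 difference was 0.26. Among arrays with neighbouring serial codes, Psmb9 differed by 1.06 in one run (1 B6g7 and 2 NOD arrays) and by 0.15 in the other (1 and 1). RMA normalization is named in the submitters' notes for all 3 B6g7 infiltrates and for none of the NOD ones, and the reverse holds in pancreatic T cells and in spleen, where it is named for all NOD arrays and no B6g7 array. In these 3 populations that note and background cannot be told apart. The other 5 genes differed by -0.04 to 0.39. Tap1 lay at 8.42, 7.91 and 7.69 in B6g7 arrays and at 7.43, 8.13 and 7.42 in NOD arrays, which overlapped (difference 0.35, 95% interval -0.29 to 0.99, limma adjusted p = 0.999).

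In T cells, the Psmb9 differences had opposite signs at the 2 sites and passed at neither. In pancreatic T cells it lay at 8.87 and 8.93 in B6g7 arrays and at 8.78, 7.73 and 8.32 in NOD arrays, which did not overlap (difference 0.63, SE 0.32, limma adjusted p = 0.806). In lymph node T cells it lay at 8.77 and 8.97 in B6g7 arrays and at 9.77, 9.69 and 8.93 in NOD arrays, which did (difference -0.59, SE 0.32, limma adjusted p = 0.773). Psme2/Psme2b in lymph node T cells lay at 8.73 and 9.19 in B6g7 arrays and at 9.93, 9.24 and 9.47 in NOD arrays. These did not overlap, and the difference of -0.59 (SE 0.24, unadjusted p = 0.0280) did not pass (limma adjusted p = 0.661). In NK cells the Psme2/Psme2b arrays given above differed by -0.46 (95% interval -1.02 to 0.11, limma adjusted p = 1.0) and the Tap1 arrays, at 7.39 and 7.20 in B6g7 and 6.93 and 7.08 in NOD, by 0.29 (95% interval -0.50 to 1.07, limma adjusted p = 1.0), both without overlap. The NK arrays of Psme1, Psmb8, Psmb9 and B2m did overlap between backgrounds. With 2 arrays per background such separation often arises by chance, so it is no evidence of a background difference. In spleen all 6 differences lay between -0.20 and -0.07.

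Between the sites, all 6 genes averaged lower in pancreatic than in lymph node T cells of NOD mice, and none passed the test. Here 0.0161% of all probe sets passed and 2263 of 12422 had an unadjusted p under 0.05. The 6 genes had a median difference of -0.42, beside 0.07 over all probe sets. The median was -0.73 for the 11 other barrel subunits, 8 of them below 0. It was -0.50 for the 5 loading genes and -0.34 for the 20 cap subunits. Lower averages were thus not particular to the 6 genes. Psmb9 lay at 8.78, 7.73 and 8.32 in pancreatic T cells and at 9.77, 9.69 and 8.93 in lymph node T cells, so every pancreatic array was below every lymph node array. RMA is named for all 3 of these pancreatic arrays and for none of the lymph node arrays, so the note and the site cannot be told apart. The difference was -1.19 (SE 0.28, 2.27-fold, unadjusted p = 0.000607, limma adjusted p = 0.110). The arrays were taken as pairs by replicate number, although the labels do not say what a number shares. Psmb9 was lower in the pancreas in all 3 pairs, by -0.99, -1.95 and -0.61. The largest difference was that of pair 2, which joins a pancreatic array from 24 days with a lymph node array from 22 days. With the pair as a block the limma adjusted p was 0.0564. It was 0.0195 without NOD pancreatic array 3 and 0.050, just under the threshold, without NOD lymph node array 3, and ran from 0.0195 to 0.855 over all alternatives. Pancreatic array 2, the lowest for Psmb9, also had the largest Gapdh 3' minus 5' difference of the T cell arrays, 4.87, against 3.09 in lymph node array 2. Without that array the Psmb9 difference was -0.91 (limma adjusted p = 0.310).

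The other genes were less regular between these sites. Psme2/Psme2b lay at 8.59, 8.78 and 9.30 in NOD pancreatic T cells and at 9.93, 9.24 and 9.47 in NOD lymph node T cells, lower in the pancreas in all 3 pairs but with overlapping ranges. Its difference was -0.66 (SE 0.22, limma adjusted p = 0.140), and it passed only without NOD pancreatic array 3 (limma adjusted p = 0.0164). Psmb8 and B2m were also lower in the pancreas in all 3 pairs, by means of -0.43 and -0.29, without passing (limma adjusted p = 0.443 and 0.736). Psme1 and Tap1 differed by -0.04 and -0.41, and in pair 1 both were higher in the pancreas, by 0.69 and 0.37. Among related genes, Irf1 differed by -1.33 and did not pass (limma adjusted p = 0.110). NOD pancreatic array 1 carried liver transcripts, with Alb at 12.71, and so did NOD lymph node array 1, at 8.4, and array 1 of B6g7 T cells from pancreas and lymph node, at 12.06 and 11.71. Without these arrays, the NOD site differences of Psmb9 and Psme2/Psme2b were -1.28 and -0.31. B6g7 T cells then kept array 2 alone at each site. Leaving these arrays out therefore cannot decide whether a gene differs between sites or backgrounds in T cells.

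**Figure D4:**
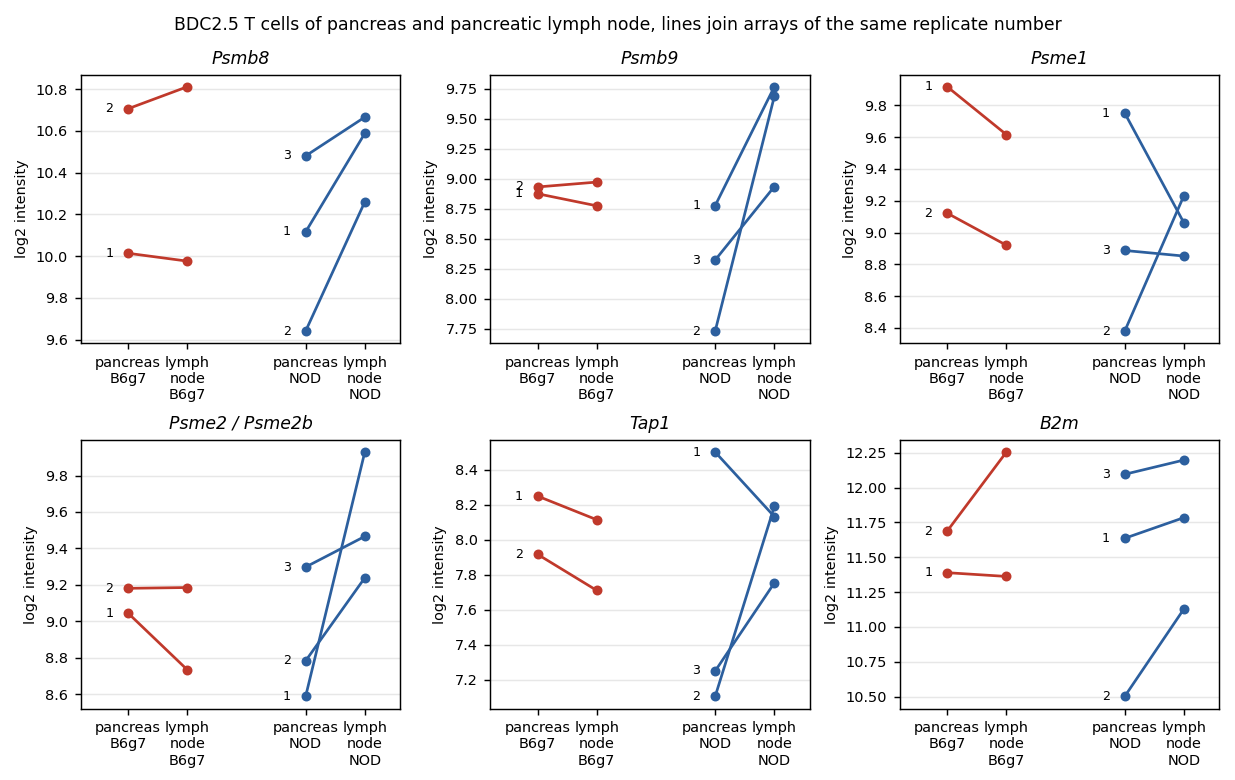
Log2 intensity of each gene in BDC2.5 T cells of pancreas and lymph node, with lines joining arrays of the same replicate number (the number stands at the pancreatic point; red, B6g7; blue, NOD); vertical axes do not start at 0. In NOD, all 3 Psmb9, Psme2/Psme2b, Psmb8 and B2m lines are lower at the pancreatic end, and in B6g7 both Psmb9 lines are nearly flat.

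In B6g7 mice, T cells of pancreas and lymph node differed by -0.27 to 0.25 over the 6 genes, none of which passed, where 0% of all probe sets passed and 81 had an unadjusted p under 0.05. Psmb9 lay at 8.87 and 8.93 in pancreatic T cells and at 8.77 and 8.97 in lymph node T cells, a difference of 0.03 (95% interval -0.70 to 0.76). The site difference in B6g7 minus that in NOD was 1.22 for Psmb9 (SE 0.45, unadjusted p = 0.0145, limma adjusted p = 0.998). For Psme2/Psme2b it was 0.81 (SE 0.34, unadjusted p = 0.0313, limma adjusted p = 0.998). None of the 6 genes passed this test of the difference, in which 0% of all probe sets passed and 351 had an unadjusted p under 0.05.

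Pancreatic infiltrate was also set against splenic leukocytes of the same background, and none of the 6 genes passed, where 7.58% of all probe sets passed in B6g7 and 9.12% in NOD. In B6g7, Psmb8 lay at 10.43, 9.78 and 10.42 in infiltrate and at 9.72 and 9.46 in spleen, without overlap (difference 0.62, SE 0.32, limma adjusted p = 0.292). Psmb9 differed by 0.65 in B6g7 (SE 0.32, limma adjusted p = 0.265) and by 0.03 in NOD (SE 0.32, limma adjusted p = 0.979). Tap1 in NOD lay at 7.43, 8.13 and 7.42 in infiltrate and at 8.77 and 8.34 in spleen, without overlap (difference -0.89, SE 0.34, limma adjusted p = 0.120). Without B6g7 infiltrate array 1 the B6g7 difference of Psmb9 was 0.36. Without the arrays with liver transcripts it was 0.10, with infiltrate array 3 as the only B6g7 infiltrate left. With array quality weights, Psmb9 in B6g7 (limma adjusted p = 0.0121) and Tap1 in NOD (limma adjusted p = 0.0138) passed. No gene passed the test of the infiltrate against spleen difference between backgrounds, where 0.0403% of all probe sets did. Spleen again differed from infiltrate in amplification rounds, and on each background RMA is named for the arrays of only one of these populations, so that note and the population cannot be told apart. Of the 14 class I heavy chain and related genes, 1 was lower in B6g7 infiltrate and 3 in NOD infiltrate, and none was higher, with list medians of 0.07 and -0.09. H2-K1 differed by -0.94 in B6g7 (limma adjusted p = 0.0677) and by -1.2 in NOD (0.0179), and H2-D1 by -0.92 in B6g7 (0.0649) and by -1.33 in NOD (0.00738). H2-Q4 fell in infiltrate of both backgrounds, with differences of -1.67 in B6g7 and -2.34 in NOD (limma adjusted p = 0.0273 and 0.00232). Tapbp fell by 0.92 in NOD infiltrate (limma adjusted p = 0.0410).

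Infiltrate was also set against pancreatic T cells, and none of the 6 genes passed, where 2.71% of all probe sets passed in B6g7 and 3.23% in NOD. In B6g7, Psmb9 lay at 10.18, 9.57 and 9.06 in infiltrate and at 8.87 and 8.93 in T cells, a difference of 0.70 (SE 0.32, limma adjusted p = 0.350). That difference was 0.41 without infiltrate array 1 and 0.13 without the arrays with liver transcripts. The last value sets infiltrate array 3 against T cell array 2, the only array left on each side. In NOD it lay at 8.95, 9.31 and 8.90 in infiltrate and at 8.78, 7.73 and 8.32 in T cells, a difference of 0.78 (SE 0.28, limma adjusted p = 0.187). Neither pair of groups overlapped, neither difference passed, and RMA is again named for only one side of each, so that note and the population cannot be told apart.

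In the order of group means, Psmb9 ran highest in B6g7 infiltrate (9.60 ± 0.56, SD, n = 3) and NOD lymph node T cells (9.46 ± 0.46, n = 3), then NOD infiltrate at 9.05, with both spleen groups and both B6g7 T cell groups between 9.03 and 8.87. NOD pancreatic T cells followed at 8.28 ± 0.52 (n = 3) and NK cells at 7.01 ± 0.05 in NOD and 6.97 ± 0.07 in B6g7 (n = 2 each). The step of 1.26 above the NK groups was the only one between neighbours in this order without overlap. Psme1 and Psme2/Psme2b had a like step of 1.41 and 1.32 between NOD pancreatic T cells and NK cells, and the Psme2/Psme2b order ended with B6g7 NK below NOD NK without overlap, whereas Tap1 ended with NOD NK below B6g7 NK without overlap. Tap1 was highest in spleen, at 8.55 ± 0.30 in NOD and 8.39 ± 0.13 in B6g7 (n = 2 each), with no overlap between B6g7 spleen and the next group, B6g7 pancreatic T cells at 8.08. Psmb8 ran from 10.50 ± 0.22 in NOD lymph node T cells (n = 3) to 9.59 ± 0.18 in B6g7 spleen (n = 2), and B2m from 11.81 ± 0.09 in NOD NK cells (n = 2) to 10.97 ± 0.73 in NOD infiltrate (n = 3). All neighbours in both of these orders overlapped.

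The 6 genes did not form one block across the arrays. Over 24 arrays, Psme1 and Tap1 correlated at r = 0.88, and Psmb9 and Psme2/Psme2b also at 0.88. Over the 20 arrays without NK cells, Psme1 and Tap1 stayed at 0.87 while Psmb9 and Psme2/Psme2b came to 0.52. Psmb9 and Tap1, whose promoters share the stretch shown above, correlated at 0.74 over 24 arrays and 0.54 without NK cells. Psmb8 and B2m correlated at 0.46 and 0.55, and B2m with Psme1 at -0.34 and -0.22. The arrays share populations and runs of neighbouring serial codes, so these are descriptions only. The 8 genes most like the mean of the 6 over 24 arrays were Casp8 (r = 0.93), Med10 (0.91), Ctps2 (0.91), Uqcrh (0.90), Rab3ip (0.89), Rrp1 (0.89), Cpsf3 (0.89) and Traf3ip2 (0.89). Without NK cells these ran from 0.70 for Traf3ip2 to 0.84 for Rab3ip. The 6 genes themselves did not follow their mean equally over 24 arrays. Psme2/Psme2b and Psmb9 correlated with it at 0.87, Psme1 at 0.79, Tap1 at 0.76, Psmb8 at 0.49 and B2m at 0.13.

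Psme1, Psme2/Psme2b and Tap1 each had a second, dimmer probe set, of the kind Affymetrix designed with relaxed selection rules. Their median log2 intensities were 3.31 for Psme1, 5.32 for Psme2/Psme2b and 4.41 for Tap1, where array medians ran from 5.13 to 5.29. Probe sets this dim may hold little signal. None of the 3 followed the brighter probe set of its gene over the 24 arrays, with r = -0.25 for Psme1, 0.02 for Psme2/Psme2b and -0.67 for Tap1. In NK cells against spleen they differed by 0.12, 0.13 and 0.28 and did not pass (limma adjusted p = 0.789, 0.806 and 0.396). The NK differences of these 3 genes therefore rest on 1 probe set each, as do those of Psmb9, Psmb8 and B2m.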

How the data were processed

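The authors deposited 1 table of linear probe set intensity, not counts, with 1 column per array; log2 was taken without a pseudocount, since the smallest value was 5.70. Per the submitters' processing notes, 11 of 24 arrays went through RMA; how the authors made the other 13 was not given in the sources used here. Array medians ran from 35.1 to 39.1, and the number of arrays limits the precision. After 66 controls were left out, 12422 probe sets were fitted over all arrays as group means with limma 3.58.1 in R 4.3.3 (14 residual degrees of freedom), with Benjamini-Hochberg adjustment within each of 15 two-sided contrasts and a threshold of 0.05. Symbols came from the platform annotation, updated through RefSeq (GRCm38.p6), and 10833 probe sets had 1 gene. The probe set with the highest mean stood for a gene, that of Psme2 being kept although it also names Psme2b.

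The 6 genes, the lists and the tests were chosen with earlier results of these data known. Named genes were the 6, genes of those lists, and the 8 most correlated with the mean of the 6 after scaling. In NOD T cells, same-numbered pancreatic and lymph node arrays deviated together (r = 0.342, 0.358 and 0.289 over all probe sets), and they were taken as pairs. Some same-numbered arrays of different backgrounds also deviated together, at 0.649 for NK array 1 and 0.645 for pancreatic T cell array 1. Others did not, at 0.003 for infiltrate array 2 and -0.037 for lymph node T cell array 2. The correlation therefore does not show pairing. The labels do not say what a number shares, and pair 2 differs in age. The fit was tested on simulated data. Alternatives were other normalization and centring, a filter on dim probe sets, another prior, array weights, only the compared groups, a replicate block, serial code runs as a random block, 1 probe set per gene, each array left out, and, chosen after seeing the data, without 6 arrays with liver transcripts.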

Additional observations from a re-analysis of the deposited data

How the results depend on the processing

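Of 1428 recomputed values of single genes, 1413 stayed on the same side of the threshold, 9 lost a call, 6 gained one, and no called value changed sign; 113 uncalled values did. The 9 lost calls were all those of Tap1 in NK cells against lymph node T cells. The count of genes passing moved from 0 to 1 with array weights for infiltrate against spleen, in B6g7 (Psmb9) and in NOD (Tap1). For NOD pancreatic against lymph node T cells it was 0 to 2 on leaving out single arrays. In NK cells against spleen it was 4 to 5, the fifth being B2m with only the compared groups. The replicate block changed none of the 15 counts, which stayed at 0 in 13 comparisons and at 4 in both NK comparisons; for NOD T cells it moved the adjusted p of Psmb9 to 0.0564.

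Counts over all probe sets moved more. They were 34 (6 to 302 over the alternatives) between backgrounds in infiltrate, 18 (0 to 307) in pancreatic T cells, 16 (0 to 37) in lymph node T cells, 6 (0 to 67) in NK cells and 9 (2 to 66) in spleen. They were 2 (0 to 1849) between T cell sites in NOD, 942 (324 to 4283) and 1133 (351 to 3027) for infiltrate against spleen in B6g7 and NOD, 337 (84 to 424) and 401 (86 to 847) against pancreatic T cells, 5 (0 to 18) for infiltrate or spleen by background, 2872 (2012 to 5681) for NK cells against spleen and 1882 (1015 to 3442) against lymph node T cells. The 307 in pancreatic T cells came from the replicate block. Groups of 2 or 3 arrays limit what could pass.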
